A study of Mus musculus with 12 samples.

Results

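The comparison set primordial germ cells (PGCs) of female mouse embryos at embryonic day 12.5 (E12.5) against PGCs of embryos at E9.5. Arrays were taken by the prefix of the array code in their labels, which gave 2 arrays at each age, 4 of the 12 arrays of the series, and every one of the 45101 probe sets was read on them. All 4 samples came from matings of a C57BL/6 male carrying the stella-EGFP reporter with wild-type BDF1 females, and the cells were isolated by fluorescence-activated sorting on that reporter. The labels give the sex as female at E12.5 and as unknown at E9.5. They call the 2 arrays of an age biological replicates, and do not say how many embryos went into each. Each array received biotin-labelled RNA made from cDNA that had been amplified by PCR, with 12 initial cycles, from 5 ng of total RNA, the equivalent of 500 cells. The 8 other arrays carried PGC-like cells (PGCLCs) made from embryonic stem cells, of which the day 6 (d6) female and d6 male cells are used below.

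PGCs are the embryonic precursors of oocytes and sperm. In the mouse, cells at E9.5 are migrating through the hindgut and its mesentery, and by E12.5 they have settled in the gonad, where female germ cells are about to enter meiosis. Over this interval the genome loses most of its DNA methylation, including that of imprinted genes, and a programme of germ cell genes is switched on, many of which act in RNA control, defence against transposons and meiosis.

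Both array codes of E12.5 contain EA1013, and those of E9.5 contain EA0831 for replicate 1 and EA0842 for replicate 2, so that array code and age cannot be told apart from these 4 arrays alone. What the code stands for is not stated in the labels. The same codes also divide d6 female (EA1013) from d6 male (EA0831 and EA0842) PGCLCs. A second fit therefore subtracted the d6 female minus d6 male difference from each change, which removes an effect of array code shared by both pairs but also subtracts the sex difference of PGCLCs. It is called the array code term below.

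The markers of the label were present on all 4 arrays. Values are log2 signal, so that 1 unit is a 2-fold difference. Dppa3 (stella), the gene of the sorting reporter, read 13.08 and 13.10 at E12.5 and 13.02 and 13.18 at E9.5. Pou5f1, the pluripotency factor that PGCs retain, read 12.34 and 12.38 against 12.61 and 12.96, and Dnd1, an RNA-binding protein needed for germ cell survival, read 11.52 and 11.43 against 11.56 and 11.44. These levels lie near the top of the scale, and those of Dppa3 and Dnd1 overlapped between ages. The sort selected for the reporter, so the match of Dppa3 between ages is not independent of it. The E12.5 arrays were closer to each other (r = 0.9904 across 13436 genes) than the E9.5 arrays were (r = 0.969), and the correlations between ages were 0.914 to 0.921. Genes share these arrays and are not independent replicates, and the median SD over genes was 0.108 at E12.5 and 0.223 at E9.5.

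In limma, 3170 of 13436 genes (23.6%) differed at an adjusted p under 0.05, 1727 of them higher at E12.5 (12.9%) and 1443 lower (10.7%). Such genes are named called below. At least 2-fold changes were found for 959 higher and 891 lower genes, and at least 4-fold changes for 213 and 283. The share of calls that were higher, 54.5%, depended on the scaling: with the values as deposited, 1350 genes were higher and 1689 lower (44.4% higher). With the array code term, 1293 genes were called (9.62%), 662 higher (4.93%) and 631 lower (4.7%), and 1119 of them were also called in the same direction without it. The count fell to 1387 without E12.5 replicate 1 and to 1497 without E12.5 replicate 2, and was 2267 and 2541 without E9.5 replicate 1 and 2, and 1130 genes (600 higher, 530 lower) were called whichever array was left out. A change is the E12.5 mean minus the E9.5 mean of log2 values, with its standard error (SE) and an adjusted p from limma (n = 2 arrays per age). A gene said below to be higher or lower kept its call with each of the 4 arrays left out and with the array code term, unless the exception is given. Each SE and p-value sets the change against a spread between replicate arrays that was estimated over all 6 groups of the series, PGCLCs included. It is not the spread of the 4 arrays alone, and E9.5 arrays varied more than E12.5 arrays (median SD 0.223 and 0.108). Levels under 4.81 (the median over all arrays and probe sets) are imprecise, since no detection calls were used.

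**Figure D1:**
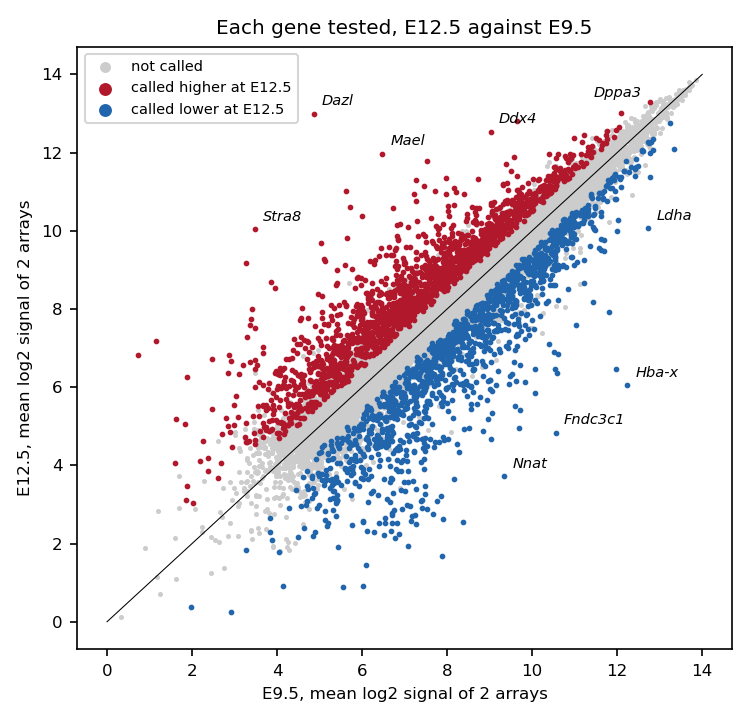
Mean log2 signal of the 2 E12.5 arrays (vertical axis) against that of the 2 E9.5 arrays (horizontal axis) for each of the 13436 genes tested, with 1727 genes called higher in red and 1443 called lower in blue. Dazl, Stra8 and Mael stand far above the diagonal, Hba-x, Fndc3c1 and Nnat far below it, and Dppa3 lies on it.

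To rank changes without giving weight to imprecise dim values, levels below 4.81 were set to 4.81, and the 12 called genes that rose or fell most on that floored scale were named, apart from provisional symbols. Changes printed are those without the floor, on which some genes that are dim at E12.5 or E9.5 changed more than these. Dazl, an RNA-binding protein that licenses germ cells for sexual development, read 12.96 and 13.04 at E12.5 and 5.92 and 3.81 at E9.5, a change of 8.14 (SE 0.61, adjusted p = 8.1e-05). At E12.5 it was among the brightest genes of the array, and the lower age spread over more than 2 units. Stra8, which retinoic acid induces ahead of meiosis, read 10.16 and 9.92 against 3.17 and 3.77 (6.57, SE 0.36, adjusted p = 3.64e-05). Mael, a component of the piRNA pathway, read 11.98 and 11.97 against 6.65 and 6.30 (5.50, SE 0.33). Smc1b, a cohesin subunit of meiotic chromosomes, read 10.99 and 11.04 against 5.94 and 5.28 (5.41, SE 0.38), and Hormad1, a protein of the meiotic chromosome axis, 10.53 and 10.67 against 6.14 and 5.28 (4.89, SE 0.40). The ranking took only genes whose arrays did not overlap between ages, so their separation was set by that rule. The other genes among the 12 rises ranked this way were Larp1b (4.65), Zglp1 (4.38), a GATA-like factor needed for oogenic fate, Sohlh2 (4.27), a transcription factor of early oocytes and spermatogonia, Tex12 (4.16), Mov10l1 (4.16), Lonrf2 (4.10) and Slc25a31 (4.03), which exchanges ADP for ATP across the germ cell's mitochondrial membrane. All 12 kept their call in every alternative fit that was run.

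**Figure D2:**
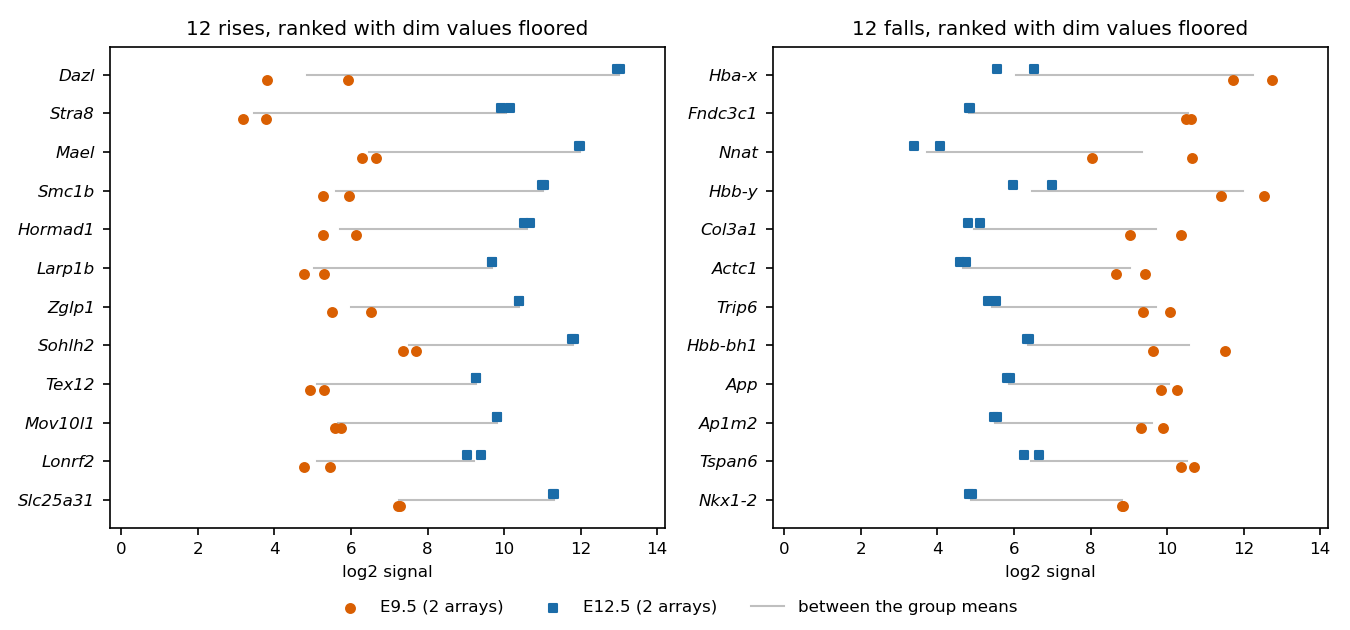
Log2 signal on each E12.5 array (blue squares) and each E9.5 array (orange circles) for the 12 rises (left) and 12 falls (right) that ranked highest once levels below 4.81 were set to it, with a line between the group means. Only genes without overlap between ages could be ranked, so none shows it. The E9.5 arrays are farther apart than the E12.5 arrays for Dazl, Nnat and Hbb-bh1.

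Many germ cell genes are kept silent in other cells by DNA methylation of CpG-rich promoters and by a repressor complex that binds E2F6 sites and, through MGA and MAX, E-boxes. The promoters of genes among the 12 ranked rises are shown for this reason. Each is 300 bases on the gene's strand, 250 before and 50 after the start, from RefSeq on build GRCm38.p6. Capitals mark TCCCGC (an E2F6 site, or its reverse complement) and CACGTG (an E-box), which do not overlap each other in these sequences. Mael (chr1:166238695-166238994, minus strand), Hormad1 (chr3:95559427-95559726, plus strand, 1 of 2 listed), Tex12 (chr9:50561219-50561518, minus strand) and Slc25a31 (chr3:40708621-40708920, plus strand) hold both motifs. Dazl (chr17:50293571-50293870, minus strand) holds neither.
Mael: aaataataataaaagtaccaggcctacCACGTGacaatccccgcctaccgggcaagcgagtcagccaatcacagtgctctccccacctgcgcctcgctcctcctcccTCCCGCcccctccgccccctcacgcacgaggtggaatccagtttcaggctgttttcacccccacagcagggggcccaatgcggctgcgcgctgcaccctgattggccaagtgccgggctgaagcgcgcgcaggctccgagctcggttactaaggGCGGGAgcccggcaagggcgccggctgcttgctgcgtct
Hormad1: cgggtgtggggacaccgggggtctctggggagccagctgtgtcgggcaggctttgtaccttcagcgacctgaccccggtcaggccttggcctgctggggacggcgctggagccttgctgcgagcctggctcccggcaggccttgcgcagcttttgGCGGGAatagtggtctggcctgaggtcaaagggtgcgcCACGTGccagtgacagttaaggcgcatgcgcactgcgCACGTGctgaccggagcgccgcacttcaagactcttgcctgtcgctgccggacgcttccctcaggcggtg
Tex12: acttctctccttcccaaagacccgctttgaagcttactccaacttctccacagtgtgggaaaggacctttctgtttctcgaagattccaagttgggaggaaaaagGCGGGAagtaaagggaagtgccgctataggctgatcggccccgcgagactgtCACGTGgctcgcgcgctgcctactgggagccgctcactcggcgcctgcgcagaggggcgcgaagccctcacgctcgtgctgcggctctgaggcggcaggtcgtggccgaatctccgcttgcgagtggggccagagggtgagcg
Slc25a31: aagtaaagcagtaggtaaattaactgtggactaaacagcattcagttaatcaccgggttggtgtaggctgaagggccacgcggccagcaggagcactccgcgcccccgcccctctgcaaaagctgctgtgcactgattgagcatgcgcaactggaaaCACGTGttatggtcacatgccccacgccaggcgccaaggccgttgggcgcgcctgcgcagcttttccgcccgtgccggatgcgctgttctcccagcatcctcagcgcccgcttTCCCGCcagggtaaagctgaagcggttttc
Dazl: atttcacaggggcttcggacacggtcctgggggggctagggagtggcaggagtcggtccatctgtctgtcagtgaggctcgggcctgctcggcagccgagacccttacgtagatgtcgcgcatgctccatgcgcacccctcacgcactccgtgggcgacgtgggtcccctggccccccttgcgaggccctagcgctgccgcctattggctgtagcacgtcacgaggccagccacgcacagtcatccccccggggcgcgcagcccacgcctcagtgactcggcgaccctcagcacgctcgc

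Of the 13436 genes tested, 10821 had a promoter in the RefSeq table, and 34.8% of these promoters held TCCCGC, 1084 of them CACGTG, and 3.86% both, searched on both strands. Among the promoters of the 12 ranked rises, 7 held TCCCGC, 6 CACGTG and 4 both. Over the 185 promoters available for the 213 genes at least 4-fold higher, the shares were 46.5%, 15.1% and 9.19%. Over the 221 promoters of the 283 genes at least 4-fold lower, they were 29.9%, 10.9% and 1.81%. Over the promoters of all genes called higher, the shares were 39.2%, 10.5% and 4.45%, and of all called lower 36.1%, 11.4% and 3.5%. The Slc25a31 promoter carries its E-box 93 bases before the start, as does that of Tex12, while the E-boxes of Hormad1 lie 57 and 20 bases before the start. Stra8 and Sohlh2 promoters held neither motif. Observed over expected CpG was 0.795 for the Dazl promoter and 0.0853 for that of Hba-x, an embryonic globin gene that fell. The values of ranked rises and falls overlapped: Stra8 (0.43) and Sohlh2 (0.545) rose, while Tspan6 (0.864) and App (0.796) fell. The median was 0.73 for genes at least 4-fold higher and 0.607 for those at least 4-fold lower, against 0.747 for tested genes. These shares are descriptions, and no test of them was made. Of the repressor's genes, Max read 8.78 and 8.99 against 9.61 and 10.23, a change of -1.03 (adjusted p = 0.0206) that was not called with the array code term (adjusted p = 0.274) or without E12.5 replicate 1 (0.123), E12.5 replicate 2 (0.0687) or E9.5 replicate 2 (0.105). E2f6 (-0.10), Pcgf6 (0.02), L3mbtl2 (-0.32) and Mga (0.64) did not pass the test (adjusted p from 0.152 to 0.95).

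RNA-binding proteins of germ cells were higher as a list: of 16 tested, 9 were called higher and 0 lower (median change 1.37, against 0.08 over all genes tested). Over all genes, 12.9% were called higher and 10.7% lower. The array code term left 7 higher, and with 1 array left out between 7 and 9 were higher. A gene can stand on more than 1 list. Ddx4, the RNA helicase of germ granules also known as mouse vasa homolog, read 12.51 and 12.55 at E12.5 and 9.14 and 8.90 at E9.5 (3.51, SE 0.29, adjusted p = 0.000132). It was thus already well above the median of all values at E9.5, unlike Dazl. Stk31 read 11.37 and 11.35 against 8.15 and 7.79 (3.39, SE 0.20), and Tex14, which builds the bridges between germ cells, 11.23 and 11.43 against 8.33 and 9.10 (2.62, SE 0.32). Rbm46 (2.09, SE 0.34) and Adad2 (2.13, SE 0.26) were also higher. Several members differed little: Dnd1 (-0.02), Ybx2 (0.14), an RNA-binding protein of later germ cells, and Boll (-0.10), a DAZ family protein, read 6.28 and 6.26 against 6.14 and 6.61. Lin28a, which blocks let-7 maturation, read 9.11 and 8.31 against 10.05 and 9.97 (-1.30, adjusted p = 0.0714).

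The piRNA pathway makes small RNAs that silence transposons in germ cells. Of 14 genes tested, 10 were higher and 0 lower (median 2.23), against 12.9% and 10.7% of all genes tested. With the array code term 7 were higher. Between 7 and 10 were called with 1 array left out. Mov10l1, the helicase that feeds transcripts into the pathway, read 9.80 and 9.82 against 5.73 and 5.58 (4.16, SE 0.27, adjusted p = 4.8e-05). Asz1, a mitochondrial anchor of piRNA processing, read 10.50 and 10.68 against 7.06 and 6.40 (3.86, SE 0.31), but its 1 other probe set tested did not share this sign. Tdrd7, a Tudor protein of germ granules, read 9.42 and 9.28 against 6.69 and 6.10 (2.96, SE 0.23). Piwil2, the PIWI protein of fetal germ cells also called Mili, read 10.64 and 10.65 against 7.83 and 8.20 (2.63, SE 0.34, adjusted p = 0.00103), while Piwil1 was dim at both ages (5.20 and 4.52 against 4.59 and 4.99) and overlapped. Tdrkh, which helps trim piRNAs, rose by 1.81 (SE 0.24), and Tdrd12 by 1.83 (SE 0.36, adjusted p = 0.00681, and 0.0541 without E12.5 replicate 2). Gtsf1 stood at 8.93 and 8.38 against 7.29 and 4.09 (2.96, SE 1.01, adjusted p = 0.0631), and was called without E9.5 replicate 1 (4.56, adjusted p = 0.0114).

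Of 15 gonadal germ cell genes tested, a mixed list of genes known from germ cells of the gonad, 12 were higher and 0 lower (median 2.27), with 8 higher under the array code term and 9 to 11 with 1 array left out. The shares over all genes tested were 12.9% higher and 10.7% lower. Brdt, a bromodomain protein of the male germ line, read 7.37 and 7.65 against 3.35 and 3.59 (4.04, SE 0.26). Tex19.1, which restrains transposons, read 11.16 and 11.03 against 8.28 and 8.06 (2.92, SE 0.23), Tktl1, a transketolase relative on the X chromosome, 7.11 and 6.65 against 4.46 and 4.50 (2.40, SE 0.28), and Tex101, a cell surface glycoprotein of germ cells, 8.45 and 8.38 against 6.10 and 6.36 (2.18, SE 0.19). Both arrays of E12.5 lay above both of E9.5 for each of the 15 genes, an order found in 36.3% of all genes tested, with the reverse order in 28.6%.

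Genes of the meiotic chromosome were higher at E12.5. Of 13 tested genes of the synaptonemal complex and chromosome axis, 11 were higher and 0 lower (median 2.94), against 12.9% and 10.7% of all genes tested. The array code term left 9 higher. Without any 1 array, 10 or 11 were called. Sycp1, the transverse filament, read 8.35 and 8.74 against 4.16 and 3.76 (4.59, SE 0.36, adjusted p = 0.000109), and Sycp3, of the lateral element, 9.83 and 9.72 against 6.89 and 6.79 (2.94, SE 0.25, adjusted p = 0.000147). Sycp2, its partner in the lateral element, rose by 3.04 (SE 0.36) to 6.33 and 6.79. The central element genes Syce3 (4.84, SE 0.62), Tex12 (4.16, SE 0.27) and Syce1 (1.98, SE 0.21) were higher. Syce2, of the same central element, was the exception: it read 12.78 and 12.76 at E12.5 and 12.86 and 12.80 at E9.5 (-0.06, adjusted p = 0.82), bright and alike at both ages. The cohesin subunit Stag3 read 11.54 and 11.85 against 9.46 and 9.31 (2.31, SE 0.24). Rec8, the meiotic kleisin, read 9.56 and 9.60 against 6.82 and 7.24 (2.55, SE 0.21, adjusted p = 0.00013), but its change was 0.99 (adjusted p = 0.0697) with the array code term; d6 female PGCLCs read higher than d6 male cells too.

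Genes of meiotic recombination followed less evenly, with 7 of 15 higher and 0 lower (median 0.70), against 12.9% and 10.7% of all genes tested. The array code term left 3 higher. Without that term, 5 or 6 were higher with 1 array left out. Tex15 read 10.60 and 10.70 against 8.18 and 8.15 (2.49, SE 0.17, adjusted p = 5.53e-05), Rec114, a partner of the break-forming enzyme, 10.29 and 10.35 against 8.04 and 7.19 (2.70, SE 0.32), and Msh4, of crossover formation, 5.75 and 5.81 against 3.14 and 2.94 (2.74, SE 0.47). The genes of the break and of strand exchange showed small differences whose call was fragile. Spo11, which cuts the DNA, changed by 0.70 (adjusted p = 0.0258) and Dmc1, the meiotic recombinase, by 0.74 (adjusted p = 0.0418). Neither was called in any of the 4 fits with 1 array left out (adjusted p from 0.0571 to 0.171 for Spo11 and 0.0669 to 0.167 for Dmc1), nor with the array code term (0.22 and 0.316). Prdm9 (1.03, adjusted p = 0.0668) and Mnd1 (0.61, adjusted p = 0.104) did not pass.

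Retinoic acid triggers meiotic entry, and its list split. Of 14 genes, 4 were higher and 4 lower (median -0.39), against 12.9% and 10.7% of all genes tested. The array code term left 2 higher and 4 lower, and 3 or 4 were higher and 2 to 5 lower with 1 array left out. Beside Stra8, Meioc, which keeps meiotic transcripts in play, read 7.29 and 7.25 against 3.38 and 3.22 (3.97, SE 0.34, adjusted p = 0.000161). The lower members included genes of retinoid handling and of the wider retinoic acid response. Hoxb1, a direct target in the hindbrain and trunk, read 2.86 and 2.72 against 7.23 and 6.18 (-3.91, SE 0.36, adjusted p = 0.000212), and Stra6, a retinol transporter, 5.70 and 5.49 against 6.43 and 6.36 (-0.80, SE 0.14). Crabp2, a carrier of retinoic acid, changed by -2.37 (adjusted p = 0.013), and Aldh1a2, which makes retinoic acid in mesoderm, by -1.56 (adjusted p = 0.0111). Both lost the call without either E12.5 replicate or without E9.5 replicate 1, with adjusted p from 0.0556 to 0.0802 for Crabp2 and 0.0534 to 0.0709 for Aldh1a2. The receptors Rara (-0.29, adjusted p = 0.225), Rarb (-1.44, adjusted p = 0.0569) and Rarg (0.43, adjusted p = 0.174) did not pass.

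Early oocyte genes were called in 5 of 12 cases, all higher (median 0.69), with 2 higher under the array code term and 2 to 4 with 1 array left out. Over all genes tested, 12.9% were called higher. Sohlh2 read 11.77 and 11.82 against 7.35 and 7.69 (4.27, SE 0.26, adjusted p = 4.35e-05), and its partner Sohlh1 5.03 and 4.62 against 4.37 and 4.19 (0.54, adjusted p = 0.0722). Lhx8, a homeobox factor of oocytes, read 5.09 and 5.32 against 2.81 and 2.77 (2.41, SE 0.30), a change from a level below the median that was not called once values under 4.81 were set to it. Figla (0.89, adjusted p = 0.0665) and Nobox (-0.47, adjusted p = 0.45), factors of later oocytes, did not pass. Nlrp14 (1.70, adjusted p = 0.0214) took the opposite sign with the array code term (-1.17, adjusted p = 0.277) and was not called without E12.5 replicate 1 (adjusted p = 0.122), E12.5 replicate 2 (0.0694) or E9.5 replicate 2 (0.111).

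**Figure D3:**
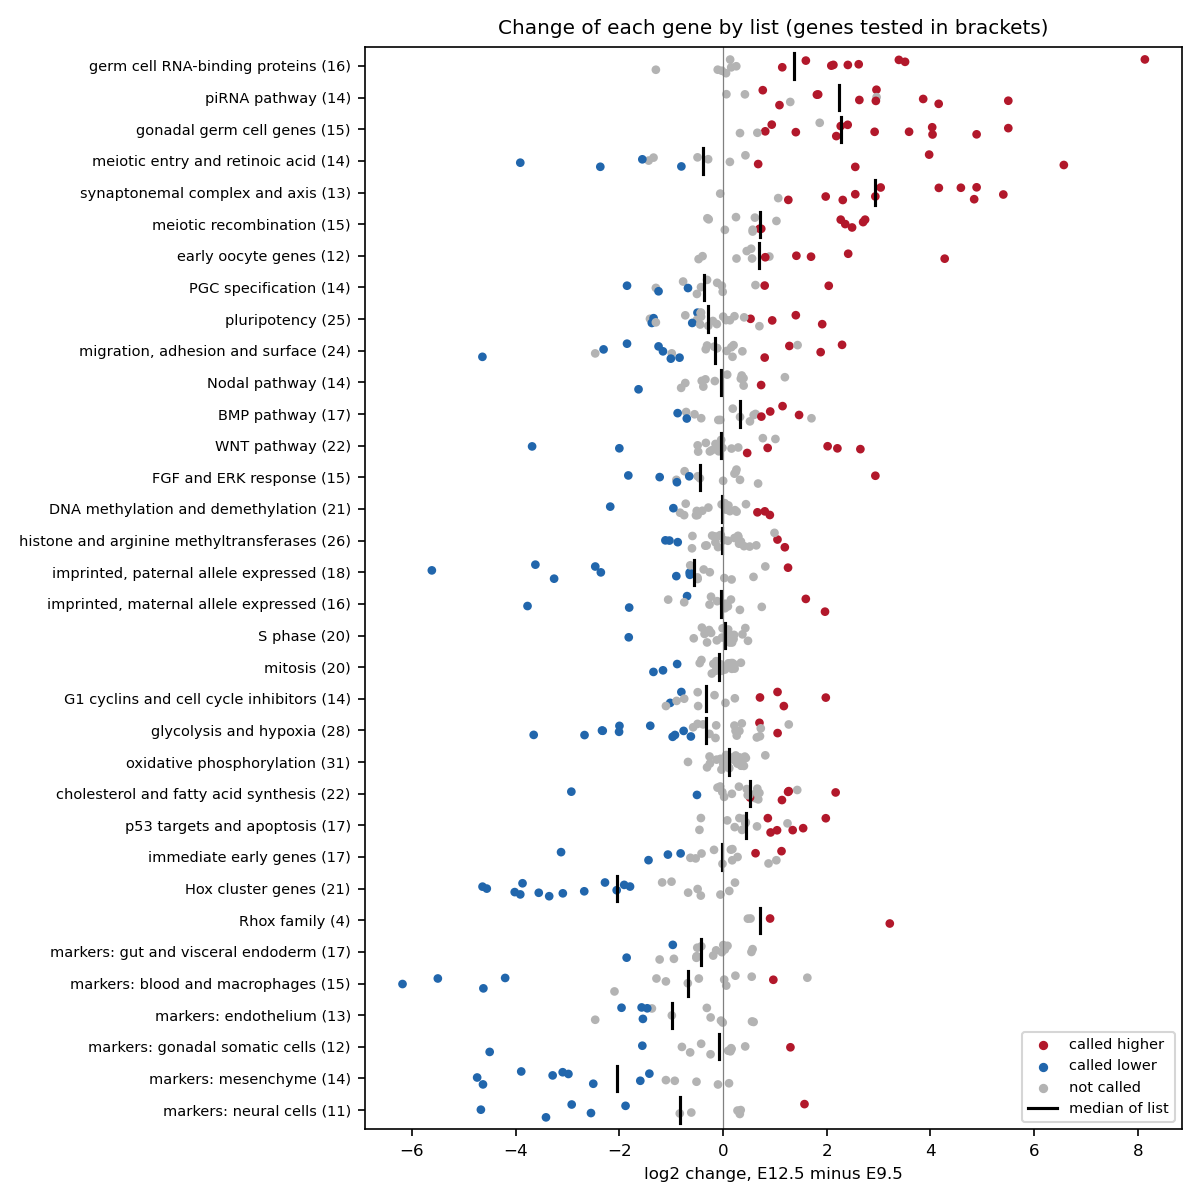
Log2 change from E9.5 to E12.5 (horizontal axis) of each tested gene in 34 lists (rows, with the number of genes tested in brackets), coloured by call, with the median of each list as a black bar. Medians are highest for the synaptonemal complex (2.94), gonadal germ cell genes (2.27) and the piRNA pathway (2.23), and lowest for Hox genes and mesenchyme markers (both -2.05).

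Of 14 PGC specification genes tested, 2 were higher and 3 lower (median -0.37), against 12.9% and 10.7% of all genes. The array code term left 2 higher and 1 lower, and without an E12.5 array 0 were higher and 2 lower. Prdm1 (Blimp1), the first determinant of PGC fate, read 9.93 and 9.79 against 10.42 and 10.84 (-0.77, adjusted p = 0.068), and Prdm14 10.39 and 10.38 against 10.71 and 10.90 (-0.43, adjusted p = 0.0769). Neither change passed the test. Both E12.5 arrays lay below both E9.5 arrays for these genes, an order found in 28.6% of all genes tested. Tfap2c (AP2 gamma), the third factor of the network, read 11.39 and 11.35 against 11.92 and 12.17 (-0.68, SE 0.14, adjusted p = 0.00924), and was not called without either E12.5 replicate (adjusted p = 0.0571 and 0.0678) or with the array code term (0.0613). Ifitm3 (fragilis), an early PGC surface marker, was lower, at 12.17 and 12.03 against 13.34 and 13.35 (-1.25, SE 0.15, adjusted p = 0.000803), while its neighbour Ifitm1 was alike (12.89 and 12.90 against 13.03 and 13.00). Alpl, the alkaline phosphatase by which PGCs have long been stained, read 9.22 and 9.19 against 10.97 and 11.14 (-1.85, SE 0.34, adjusted p = 0.00502, and 0.0808 with the array code term). Kit, the receptor for Steel factor, read 11.67 and 11.49 against 11.66 and 12.12 (-0.31, adjusted p = 0.659). Nanos3 has no probe set named for it here and was not analysed.

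Pluripotency genes showed no common direction: of 25, 4 were higher and 4 lower (median -0.29), against 12.9% and 10.7% of all genes tested. The array code term left 2 and 0. Dppa2 and Dppa4, partners that keep CpG-rich promoters open, were higher. Dppa2 read 10.63 and 10.56 against 8.67 and 8.69 (1.91, SE 0.24, adjusted p = 0.000983), and Dppa4 12.34 and 12.43 against 11.11 and 10.85 (1.40, SE 0.17, adjusted p = 0.000779). The core factors were lower in value, but Pou5f1 (-0.43, adjusted p = 0.0772, and 0.0429 without E9.5 replicate 1) and Nanog (9.67 and 9.44 against 10.79 and 11.15; -1.41, adjusted p = 0.06) did not pass. Sox2 changed by -0.49 (adjusted p = 0.0354) and Esrrb by -0.60 (adjusted p = 0.0184). Sox2 was called in no fit with 1 array left out (adjusted p from 0.074 to 0.182), and Esrrb not without either E12.5 replicate or E9.5 replicate 2 (0.0684 to 0.127), nor were they with the array code term (0.0666 and 0.13).

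Genes of migration, adhesion and the cell surface changed in both directions. Of 24, 4 were higher and 7 lower (median -0.15), against 12.9% and 10.7% of all genes tested. The array code term left 4 and 5. Without an E12.5 array, 2 were higher. Gja1, the gap junction protein connexin 43, read 3.52 and 2.23 against 8.12 and 6.92 (-4.64, SE 0.60, adjusted p = 0.00107). Ror2, a WNT5A receptor used by migrating PGCs, read 9.36 and 9.52 against 10.46 and 10.44 (-1.01, SE 0.15, and -0.39 with adjusted p = 0.523 with probe sets averaged), and Cd24a 11.69 and 11.61 against 12.38 and 12.60 (-0.84, SE 0.15). Fut9 and Fut4 are enzymes that make the SSEA1 sugar. Fut9 read 3.62 and 3.73 against 5.94 and 6.02 (-2.31, SE 0.24), but its other probe set had the opposite sign, and with probe sets averaged the change was -0.47 (adjusted p = 0.122). Fut4 read 7.20 and 7.31 against 5.29 and 4.62 (2.29, SE 0.23, adjusted p = 0.000356). Icam1 was higher (1.88, SE 0.30). The chemokine receptor Cxcr4, which guides PGCs, was dim and overlapped (4.71 and 4.37 against 4.99 and 3.96; 0.07, adjusted p = 0.897), as was Epcam, bright at both ages (0.16, adjusted p = 0.611).

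Signalling lists had calls in both directions. In the Nodal list 1 of 14 genes was higher and 1 lower, in the BMP list 4 of 17 higher and 2 lower, in the WNT list 5 of 22 higher and 2 lower, and among FGF and ERK response genes 1 of 15 higher and 4 lower, against 12.9% and 10.7% of all genes tested. The array code term left 0 and 1, 0 and 0, 2 and 1, and 2 and 0 in these lists. The BMP balance turned with the values as deposited, with 2 higher and 4 lower, and 0 BMP genes were called with the array code term, although 11 had an unadjusted p under 0.05 without it. Within the WNT list, Sp5, a direct target, read 8.32 and 7.87 against 6.07 and 4.82 (2.65, SE 0.43, adjusted p = 0.00289), and the receptor Fzd5 9.11 and 8.94 against 6.75 and 6.89 (2.20, SE 0.25). The feedback inhibitor Axin2 changed by 2.02 (adjusted p = 0.00706, and 0.439 with the array code term). The ligand Wnt5a read 4.82 and 4.29 against 8.55 and 7.92 (-3.68, SE 0.56, adjusted p = 0.00214, and 0.128 with the array code term). Fgfr3, an FGF receptor, read 9.52 and 9.63 against 7.12 and 6.15 (2.94, SE 0.28, adjusted p = 0.00028).

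Of 21 genes that write and erase DNA methylation, 3 were higher and 2 lower (median -0.03), a share near the 23.6% called among all genes tested. The array code term left 0 higher and 1 lower. The maintenance enzyme Dnmt1 read 12.02 and 12.21 against 12.00 and 12.03 (0.10, SE 0.14, adjusted p = 0.638), and its cofactor Uhrf1 7.49 and 7.09 against 9.07 and 6.96 (-0.72, adjusted p = 0.448, and -1.78 with adjusted p = 0.0478 without E9.5 replicate 2), with the E9.5 arrays more than 2 units apart. The de novo enzymes Dnmt3a (-0.49, adjusted p = 0.201) and Dnmt3b (7.16 and 6.22 against 7.38 and 6.05; -0.03) did not pass. Gadd45a, a stress gene linked to DNA repair, was lower at 8.04 and 8.24 against 10.27 and 10.36 (-2.18, SE 0.20, adjusted p = 0.000199). Tet2, which oxidises methylcytosine, read 8.76 and 8.80 against 7.78 and 7.98 (0.90, SE 0.15, adjusted p = 0.0029), but turned with the array code term (-0.27, adjusted p = 0.481). Tet1 read 9.91 and 9.65 against 10.29 and 10.32 on its brightest probe set (-0.52, SE 0.62, adjusted p = 0.577). Its 2 other probe sets tested were both called higher at E12.5 when fitted on their own, and the sign turned with probe sets averaged. The direction for Tet1 is thus not settled. Of 26 genes of histone and arginine methylation and related repressors, 2 were higher and 3 lower (median -0.01), and 0 of these 5 kept the call in all 4 fits with 1 array left out. Ezh2, which trimethylates histone H3 at its repressive lysine, read 11.43 and 11.49 against 11.59 and 11.75 (-0.21, adjusted p = 0.464), and Ehmt2 (G9a) 10.90 and 11.34 against 11.04 and 11.01 (0.09, adjusted p = 0.798).

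Imprinted genes expressed from the paternal allele were lower in 8 of 18 cases and higher in 1 (median -0.56). Of all genes tested, 10.7% were called lower and 12.9% higher. With the array code term 3 of the list were lower. Without any 1 array, 3 to 5 were lower. Nnat, a small membrane protein of neural and endocrine cells, read 4.07 and 3.39 against 10.66 and 8.03 (-5.62, SE 0.92, adjusted p = 0.00318). Mest, a hydrolase of mesoderm, averaged 8.17 ± 0.24 at E12.5 and 11.43 ± 0.53 at E9.5 (SD, n = 2; -3.26, SE 0.51, adjusted p = 0.00257, and 0.235 with the array code term). Igf2, the fetal growth factor, read 7.15 and 6.65 against 11.12 and 9.92 (-3.62, SE 0.86, adjusted p = 0.0158), and was not called without E12.5 replicate 1 (0.0634), E12.5 replicate 2 (0.0897) or E9.5 replicate 1 (0.0857), nor with the array code term (0.46). Peg3 was bright and near equal (12.07 and 12.15 against 12.29 and 12.45; -0.26, adjusted p = 0.237). Of 16 genes expressed from the maternal allele, 2 were higher and 3 lower (median -0.04), and 3 and 1 with the array code term. Slc22a18 read 8.65 and 8.54 against 7.002 and 6.996 (1.60, SE 0.17, adjusted p = 0.000482). Grb10, an adaptor that restrains growth, read 6.87 and 6.81 against 10.98 and 10.24 (-3.77, SE 0.31, adjusted p = 0.000132, and 0.075 with the array code term). Cdkn1c, an inhibitor of cell division, overlapped (9.40 and 9.61 against 10.17 and 8.75; 0.05, adjusted p = 0.95).

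Cell cycle genes were nearly flat. Of 20 S phase genes 0 were higher and 1 lower (median 0.04), and of 20 mitosis genes 0 higher and 3 lower (median -0.09), against 12.9% and 10.7% of all genes tested. The S phase gene was Tyms (-1.82, adjusted p = 0.00731, and 0.248 with the array code term). The 3 mitosis genes were Aurkb, Birc5 and Cdc25c, and 0 of them kept the call in all 4 fits with 1 array left out. Mki67, the proliferation marker, read 11.16 and 11.44 against 11.17 and 11.51, and Mcm7, of the replicative helicase, 13.05 and 13.07 against 13.05 and 13.09, both overlapping. Among 14 G1 cyclins and inhibitors 4 were higher and 2 lower, all of them lost with 1 array or another left out. Cdkn1a (p21) read 9.78 and 9.15 against 7.95 and 7.02 (1.98, SE 0.44, adjusted p = 0.0123), with adjusted p 0.094 without E12.5 replicate 1, 0.0674 without E9.5 replicate 2 and 0.283 with the array code term. Targets of p53 and apoptosis genes were higher in 6 of 17 cases and lower in 0 (median 0.44), 4 with the array code term and 3 without an E12.5 array. Ccng1, a p53 target, read 9.74 on both E12.5 arrays against 8.21 and 8.18 (1.54, SE 0.16, adjusted p = 0.00039), and Trp53inp1 10.75 and 10.78 against 9.20 and 9.65 (1.34, SE 0.25, and 0.67 with adjusted p = 0.0773 with probe sets averaged). Of 17 immediate early genes, which answer handling and growth factors within minutes, 2 were higher and 4 lower (median -0.01), and 1 and 3 with the array code term. Ier3 read 6.31 and 6.84 against 9.78 and 9.63 (-3.13, SE 0.29, adjusted p = 0.000221).

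Glycolysis and hypoxia genes were lower at E12.5. Of 28 tested, 11 were lower and 2 higher (median -0.32), against 10.7% and 12.9% of all genes tested. With the array code term 11 were lower and 0 higher. Without any 1 array, 6 to 9 were lower. Ldha, which turns pyruvate into lactate, read 10.16 and 9.96 against 12.71 and 12.76 (-2.67, SE 0.29, adjusted p = 0.000463). Pfkl, the liver isoform of phosphofructokinase, read 8.54 and 8.46 against 11.15 and 10.52 (-2.34, SE 0.32), Tpi1, a step of glycolysis, 10.09 and 9.90 against 12.04 and 11.94 (-1.999, SE 0.21), and Ankrd37, a target of the hypoxia factor HIF1, 7.28 and 6.85 against 9.45 and 9.32 (-2.32, SE 0.35). The glucose transporters Slc2a1, at 9.58 and 9.53 against 11.74 and 11.39 (-2.01, SE 0.22), and Slc2a3, at 11.41 and 11.33 against 12.77 and 12.78 (-1.40, SE 0.16), were lower too. In PGCLCs the array codes differed the other way: the list's median d6 female minus d6 male difference was 0.68, so the code term enlarged these falls, to -5.06 for Ldha and -5.02 for Pfkl. Hif1a itself read 11.26 and 11.37 against 10.94 and 11.25 (0.22, adjusted p = 0.613), and Gapdh was 0.26 lower in value (adjusted p = 0.181). Oxidative phosphorylation genes gave 0 calls among 31 in limma, with 2 at an unadjusted p under 0.05 (median 0.12). Of 22 genes of cholesterol and fatty acid synthesis 5 were higher and 2 lower (median 0.51), against 12.9% and 10.7% of all genes tested. The array code term left 1 higher, Hsd17b7 of sterol synthesis (without the term 1.27, SE 0.15, adjusted p = 0.000808, and 0.0999 with probe sets averaged).

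The 12 falls ranked on the floored scale included 3 embryonic globin genes. Hba-x read 6.53 and 5.57 at E12.5 and 12.73 and 11.73 at E9.5 (-6.18, SE 0.39, adjusted p = 4.56e-05), Hbb-y 6.98 and 5.97 against 12.54 and 11.42 (-5.50, SE 0.74), and Hbb-bh1 6.35 and 6.40 against 11.52 and 9.64 (-4.20, SE 0.51). Each was higher on E9.5 replicate 1 than on replicate 2, and both lay far above E12.5. In such bulk samples, fewer cells of a type and less RNA per cell cannot be told apart. Fndc3c1, an X-linked fibronectin domain gene, read 4.85 and 4.82 against 10.50 and 10.61 (-5.72, SE 0.19, adjusted p = 2.84e-06), with close replicates at both ages. Col3a1, a fibrillar collagen, read 5.10 and 4.81 against 10.36 and 9.04 (-4.74, SE 0.46), and Actc1, cardiac actin, 4.59 and 4.73 against 9.42 and 8.66 (-4.38, SE 0.27). The others of these 12 falls were Nnat, Trip6 (-4.29), App (-4.20), the amyloid precursor, Ap1m2 (-4.09), an adaptor of epithelial sorting, Tspan6 (-4.08) and Nkx1-2 (-3.96), a homeobox gene of the tail end of the embryo. For App, 1 of 2 other probe sets tested shared the sign, and App read lower on every EA1013 array than on every other array.

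Hox genes, which mark position along the trunk, were lower in 13 of 21 cases and higher in 0 (median -2.05), with 9 lower under the array code term and 10 to 13 with 1 array left out. For all genes tested, the shares were 10.7% lower and 12.9% higher. Hoxa9 read 3.38 and 1.79 against 7.62 and 6.67 (-4.56, SE 0.51, adjusted p = 0.00051), Hoxc10 2.65 and 2.39 against 7.52 and 5.56 (-4.02, SE 0.52), and Hoxb9 4.40 and 4.95 against 8.77 and 7.29 (-3.35, SE 0.53). Hoxd8 (-2.05, SE 0.25) and Hoxd9 (-2.28, SE 0.27) had close replicates at E9.5, at 6.77 and 6.58 and at 7.19 and 6.92. Of the 21 genes, 18 read higher on E9.5 replicate 1 than on replicate 2, against 7071 of the 13436 genes tested. Hoxa5, Hoxa3 and Hoxa11 differed by 0.23, 0.12 and -0.05 and did not pass.

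**Figure D4:**
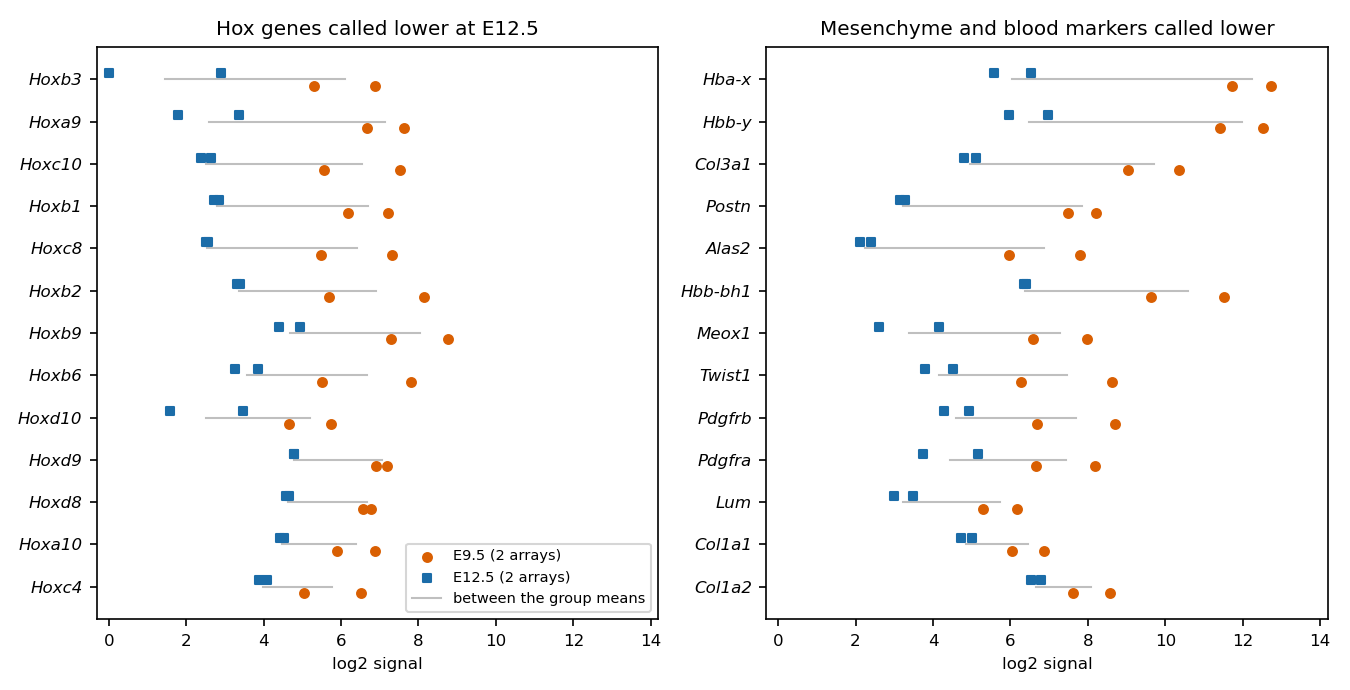
Log2 signal on each E12.5 array (blue squares) and each E9.5 array (orange circles) for the 13 Hox genes (left) and the 13 mesenchyme and blood markers (right) called lower at E12.5. The E9.5 arrays lie above the E12.5 arrays in every row, an order found in 28.6% of all genes tested, and are often 1 to 2 units apart.

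Markers of some other cell types moved with these falls. Among all genes tested, 10.7% were called lower and 12.9% higher. The 2 of 17 gut and visceral endoderm markers called lower were near that share. Of 14 mesenchyme markers, 9 were lower and 0 higher (median -2.05), 4 lower with the array code term, and 3 to 8 lower with 1 array left out. Postn, a matrix protein, read 3.28 and 3.15 against 8.20 and 7.49 (-4.63, SE 0.48, adjusted p = 0.000383). Twist1, a transcription factor of mesenchyme, read 3.79 and 4.53 against 8.62 and 6.28 (-3.29, adjusted p = 0.0125), and was not called without E12.5 replicate 1 (0.0878), E9.5 replicate 1 (0.0532) or with the array code term (0.127). Summed over the list on the linear scale and then logged, mesenchyme markers stood at 8.90 on both E12.5 arrays and at 11.93 and 10.73 on E9.5 replicates 1 and 2. Blood and macrophage markers summed to 9.91 and 9.74 against 14.02 and 12.87, with 4 of 15 lower and 1 higher: the fallen genes were the 3 globins and Alas2, of haem synthesis in red cells (2.40 and 2.10 against 7.80 and 5.96; -4.62, SE 0.49). The erythroid regulators Gata1 (0.02) and Klf1 (-1.10, adjusted p = 0.115) did not pass. Endothelial markers summed to 10.09 and 10.20 against 11.34 and 11.41, and 4 of 13 were lower, among them Egfl7 (-1.46, SE 0.21) and Emcn (-1.55, SE 0.24), whereas Kdr (-0.31), Tek (-0.01) and Cdh5 (-1.37, adjusted p = 0.208) did not pass. The others called, Cldn5 and Ramp2, lost the call with the array code term. All 4 also read in cultured d6 female PGCLCs, at means of 9.15 (Egfl7), 8.43 (Emcn), 8.80 (Cldn5) and 8.09 (Ramp2). Their E9.5 means were 8.94, 8.26, 8.97 and 7.25. Neural markers summed to 9.90 and 9.88 against 11.03 and 9.88, with 5 of 11 lower and 1 higher, and the proneural gene Neurod1 read 3.64 and 3.49 against 7.25 and 6.71 (-3.42, SE 0.48). Of 17 gut and visceral endoderm markers 2 were lower, and 0 with the array code term or without either E12.5 array or E9.5 replicate 1, and the sum was 10.75 on both E12.5 arrays against 11.34 and 11.14. Gonadal somatic markers did not rise as a list (1 of 12 higher, 2 lower; sums of 10.14 and 10.04 against 11.45 and 10.38). The gonadal factors Gata4, Wt1 and Foxl2 read 5.22 and 4.82, 4.52 and 4.46, and 6.96 and 7.17 at E12.5. Of all 6 marker lists, 20 genes in total stayed below the filter, among them the leukocyte gene Ptprc. What part other cells in the sorted samples have in the falls was not tested.

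The X chromosome had a larger share of called genes than any autosome in both directions: the autosomes had 9.63% to 17.7% called higher and 8.71% to 13.1% called lower. Of 444 X-linked genes, 169 (38.1%) were called, 99 higher (22.3%, against 12.5% of the other genes) and 70 lower (15.8%), with a median change of 0.17 against 0.08. The array code term left 73 called, 42 of them higher. Without E12.5 replicate 1 or 2, 93 and 91 were called. With the values as deposited, 78 were higher and 76 lower. Xist, the RNA that coats the inactive X chromosome, read 5.94 and 5.67 against 5.69 and 5.96 (-0.02, SE 0.28, adjusted p = 0.965), and the ages overlapped. In the X-linked Rhox family 2 of 4 genes were called higher (median 0.72). These were Rhox13, a homeobox gene of germ cells (7.01 and 6.76 against 3.82 and 3.52; 3.22, SE 0.42), and Rhox5 (12.99 and 13.02 against 12.27 and 11.92; 0.91, SE 0.21, adjusted p = 0.0159). Rhox5 was not called without E12.5 replicate 1 (0.0805), E12.5 replicate 2 (0.0849) or E9.5 replicate 2 (0.0809). Of 7 Y-linked genes tested, 3 were called lower at E12.5 and 1 higher. Eif2s3y and Kdm5d were high at E9.5, where the labels give the sex as unknown. Eif2s3y read 8.40 and 8.33 at E9.5 and 1.58 and 3.54 at E12.5, and Kdm5d 8.39 and 7.38 at E9.5 and 1.31 and 2.04 at E12.5. These changes, of -5.81 and -6.20, were not called with the array code term (adjusted p = 0.821 and 0.198), which subtracts a female minus male difference. The d6 male PGCLC means were 8.69 for Eif2s3y and 6.47 for Kdm5d, and the d6 female means 3.24 and 2.35. By these 2 genes both E9.5 samples held male cells, and whether they also held female cells was not tested. Since E12.5 cells were female and the E9.5 samples held male cells, age and sex cannot be told apart. This holds for genes of the sex chromosomes and for all other genes.

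Part of the called genes also divided all 12 arrays by their code. Over all 12 arrays, 300 of the 1727 genes called higher (17.4%) read above the other code on every 1 of the 8 EA1013 arrays, compared with 263 of 10266 genes not called (2.56%), and 149 of the 1443 called lower (10.3%) read below it on every array, compared with 138 (1.34%). Being above or below on the E12.5 and E9.5 arrays is part of both conditions, so that the called genes had to show more of them. Of all called genes, 93 took the opposite sign with the array code term, and 1 of these was then called in the opposite direction. Rec8 lost its call, as given above, while Mael, Dazl and Stra8 had changes of 6.06, 7.39 and 7.01 with the term. Genes called whichever array was left out and also with the array code term numbered 787, of which 412 were higher and 375 lower.

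**Figure D5:**
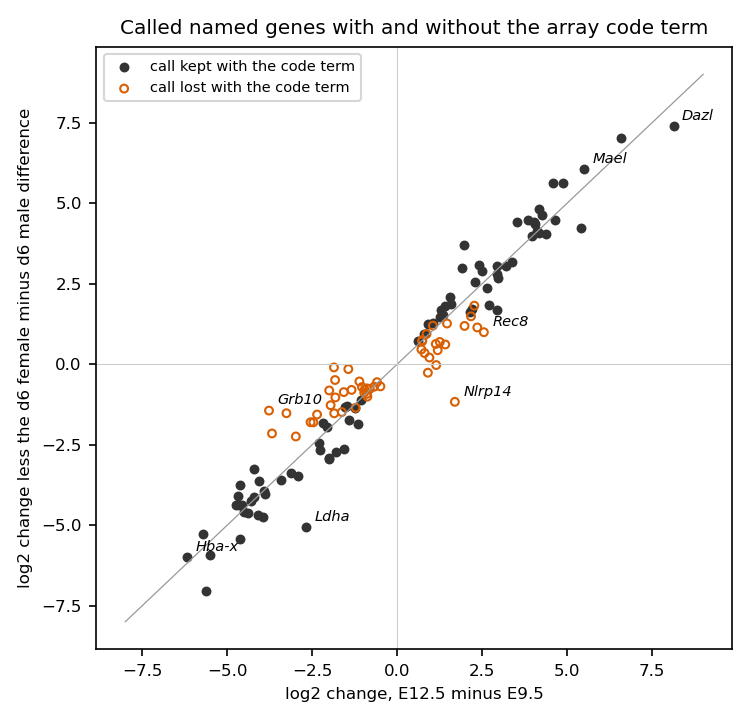
Change of each named called gene after the d6 female minus d6 male difference is subtracted (vertical axis) against its change without that step (horizontal axis), both on the log2 scale, with filled points for calls kept and open circles for calls lost. The large rises and falls stay near the diagonal, Grb10 and Rec8 move toward 0, Nlrp14 changes sign, and Ldha falls further.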

How the data were processed

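Gene expression of sorted mouse germ cells was measured on Affymetrix arrays of 45101 probe sets. The deposited table gave 1 log2 value per probe set and array. The log2 scale was read from the range of the values (array maxima of 13.76 to 13.93), and what the authors did to summarise and normalize them is not given in the sources used here. Array medians ran from 4.73 to 4.87, so the values were quantile normalized. Between 2.07% and 2.3% of probe sets stood at 0 on an array.

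Probe sets were named through the platform annotation: 34958 had 1 gene, 932 several and 9211 none there. A gene was represented by its brightest probe set on average and tested where at least 2 arrays exceeded 4.81, which left 13436 of 18194 genes. limma 3.58.1 (R 4.3.3) was fitted to all 12 arrays with 1 mean per group (6 residual degrees of freedom), two-sided, with Benjamini-Hochberg adjustment over all genes tested. In simulated data with 200 genes changed, 34% of those changed 2-fold and 89% of those changed 4-fold were recovered, while 7.52% of 133 calls were of unchanged genes. The real data had 3170 calls. The simulation also gave every group the same noise and held no effect of array code or sex. Its shares therefore do not give the rate of false or missed calls in the real data. The number of arrays limits the precision.

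The genes named were first the 12 called genes in each direction that changed most after values below 4.81 were set to it. These were taken from genes with separate arrays, established symbols and a match in the gene table. To them came at most 4 tested genes from every list, called or not (lowest adjusted p first), and a fixed set of germ cell and epigenetic genes. Others were named after their values were seen. Members and lists were chosen with earlier results of these data known, so lists are described by counts and medians only. Summed marker levels are the log2 of summed linear values. Promoters came from RefSeq (GRCm38.p6) and were matched by gene ID. Python 3.11.15, pandas 2.3.3 and matplotlib 3.10.9 were used. Some genes were not analysed here.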

Additional observations from a re-analysis of the deposited data

How the results depend on the processing

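The count of 3170 called genes was within 1.5 times of itself without a filter (2545), with a stricter filter, at the 75th percentile (2585), on the deposited values without further scaling (3039), with probe sets averaged per gene (2438), a trend and robust eBayes (3341), only the 4 arrays compared (2178) and values below 4.81 set to it (3356). It moved to 4896 with every probe set on its own (25664 tested), to 1850 when a 2-fold change was also required, and to 1293 with the array code term or, equally, the d6 female minus d6 male difference subtracted. Leaving out 1 array gave 1387 to 2541 calls, and 91 to 132 X-linked calls. The 169 X-linked calls became 73 with the array code term and by subtraction, and 120 to 222 under the other settings, apart from the arrays left out. A group left with 1 array is assumed to vary like the others.

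Of 179 called genes named or listed for naming, 120 kept their call with the array code term, 127 and 141 without E12.5 replicate 1 and 2, and 157 and 156 without E9.5 replicate 1 and 2. With the array code term, or the difference subtracted, the sign turned for Nlrp14 (-1.17), Smad7 (-0.028), Tet2 (-0.266) and Nr0b1 (0.291), and with averaged probe sets for Suv39h2 (-0.818). The cause was not tested. Probe sets of Tet1, Mcm3 and Suv39h2 disagreed, with 2, 1 and 1 other probe sets called in the opposite direction. For Asz1, App, Grb10, Ccng1, Slc2a3 and Egfl7, among others, another probe set tested did not share the sign, but none of theirs was called in the opposite direction. With the replicate number as a block, 3414 genes and 177 X-linked genes were called, and 178 of the 179 genes kept their call. Same-numbered arrays deviated together with r = 0.111 over 2 pairs, and the labels do not tie the numbers to a litter or day, so the numbers were not taken as pairs. Signals below 4.81 limit what can be said of 215 genes called higher and 277 called lower whose dimmer group lay under that level.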

Other observations

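The genes in this paragraph were chosen after their values were seen. On the higher side at E12.5, Gpat2, an acyltransferase also tied to piRNA biogenesis, read 10.95 and 10.92 against 7.41 and 7.05 (3.71, SE 0.27, limma adjusted p = 7.62e-05). Tcfl5, a transcription factor of the germ line, read 10.40 and 9.92 against 7.07 and 6.57 (3.34, SE 0.23). Aurkc, the meiotic Aurora kinase, read 10.17 and 10.19 against 7.22 and 6.58 (3.28, SE 0.26). X-linked genes with large rises were Trap1a, a tumour antigen (11.17 and 11.11 against 7.89 and 7.01; 3.69), Scml2, a Polycomb protein of the germ line (9.43 and 9.59 against 6.50 and 7.04; 2.74), and Dusp9, an ERK phosphatase (11.90 and 11.88 against 9.68 and 9.44; 2.33). Ezhip, an inhibitor of the enzyme that methylates histone H3 at its Polycomb lysine, read 7.23 and 7.13 at E12.5, and at E9.5 it read 2.31 on replicate 1 and was listed at 0 on replicate 2. All of these were called in the 4 fits with 1 array left out and in the fit with the array code term, 5 in all, but that term lowered the change of Gpat2 to 1.88 and that of Aurkc to 1.46. Aurkc read higher on every EA1013 array than on every other array.

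On the lower side, Slc40a1, the iron exporter, read 7.57 and 7.64 against 10.90 and 11.16 (-3.42, SE 0.18, adjusted p = 3.64e-05), and Slc1a5, a glutamine transporter, 6.03 and 6.14 against 9.40 and 9.53 (-3.38, SE 0.15, adjusted p = 1.81e-05). Cxcl12, the chemokine that guides PGCs and is made by the cells around them, read 3.62 and 3.68 against 8.56 and 7.78 (-4.52, SE 0.50, adjusted p = 0.000507). The X-linked gene Armcx2 read 5.43 and 4.96 against 9.38 and 8.53 (-3.76, SE 0.36). These 4 genes, too, were called in all 5 of those fits.

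Zfy2 did not follow the other called Y-linked genes. It read 7.90 and 7.61 at E12.5, in cells labelled female, and 4.42 and 4.69 at E9.5 (3.20, SE 0.24, adjusted p = 7.65e-05), while Eif2s3y and Kdm5d read the other way. The group means of Zfy2 were also high in d3 PGCLCs (7.98), d6 female PGCLCs (7.66) and d3ag6 PGCLCs (7.51), all labelled female and on EA1013 arrays, and low in d6 male PGCLCs (4.81). With the array code term its change was 0.35 (adjusted p = 0.58). Whether its probe set reads another transcript was not tested.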
